A study of Mus musculus with 29 samples.

Results

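Cx3cr1, the gene of the fractalkine receptor, was followed through every cell type of mouse brain and blood after stroke. It is 1 of the 19704 genes in the young brain tables, of 27514 in the aged brain tables and of 16623 in the blood tables, and it was found by its symbol in all 29 libraries. Its level was read as CPM, the counts of the gene scaled to a fixed total of all counts, from counts summed per library and cell type, and as the share of cells with a value above 0, with cell types taken from the annotation that the authors deposited at a coarse level (parent type) and a fine level (subtype).

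The receptor is a G protein-coupled receptor of the chemokine family. Its ligand Cx3cl1 (fractalkine) is made as a membrane-anchored protein by neurons and endothelial cells and can be cut free by the proteases Adam10, Adam17 and cathepsin S (Ctss). In the brain the receptor marks microglia, the resident macrophages, and in blood it is known for high levels on nonclassical (patrolling) monocytes and low levels on classical monocytes, which carry the receptor Ccr2.

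The gene lies on the minus strand of chromosome 9 (GRCm38/mm10, GENCODE M21, ENSMUSG00000052336.7). Its annotated span is chr9:119901616-120069879, set by 1 long transcript model, while the other models end at chr9:120048683. The coding sequence, chr9:120051273-120052334, lies within 1 exon, which is the last of the other models and exon 2 of the long model, whose short last exon is exon 3. The long model runs across other genes, among them Gorasp1, Csrnp1 and Xirp1 on the same strand, and how shared reads were counted is not given in the sources used here.

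The assay was Drop-seq, a droplet method that labels the RNA of each cell with a bead's barcode. C57BL/6J mice underwent transient middle cerebral artery occlusion (stroke) or sham surgery. All young mice were male and 8 to 10 weeks old. Their brains were sampled in 4 libraries after sham surgery (day 2), in 4 libraries 2 days after stroke and in 4 libraries 14 days after stroke, and their blood in 4, 4 and 3 libraries of the same groups. Mice of 17 to 20 months, called aged here, were sampled in brain only. Their day 2 sham group had a male and a female library, their day 2 stroke group a male library and 2 female ones, and their day 14 stroke group a single female library. A brain library pooled 4 to 5 hemispheres and held cells sorted by CD45 and Ly6c as microglia, leukocytes or endothelium, so the sort set the cell shares. A blood library pooled leukocytes of 2 mice after red cells were removed. Actinomycin D, a blocker of transcription, was present while brain and blood cells were isolated. Sham surgery was sampled at day 2 alone, and both stroke times are compared with those same libraries.

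Libraries held 1143 to 6328 cells and 819438 to 5855047 counts, and the median cell held 321 to 1363 counts. The authors' codes were checked against marker lists that do not contain Cx3cr1. Microglia (Mg), endothelial cells (EC), monocyte-derived cells of the brain (MdC) and blood monocytes (Mo) each had their own list highest, whereas the codes BAM (border-associated macrophages) and DC (dendritic cells) had the monocyte or macrophage list highest. Of 106977 cells, 345 barcodes occurred in 2 or more libraries, at most in 6. The labels number the libraries of a group and do not call them separate cohorts, so the tests measure the spread between pooled libraries.

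The deposited counts are fractional and lie just under whole numbers, and the missing part was large for this gene in some libraries. Rounding every value up gave the size of the gap. Over all cells, 3.29% to 13.5% of the rounded-up Cx3cr1 counts were missing from 17 brain libraries and 1.35% to 6.66% from the 11 blood libraries. In the young brain library labelled stroke day 2 replicate 3 the gap was 95.8%: 23.9 counts were deposited where the rounded-up sum was 573, and 568 of the 573 values above 0 were under 0.5. The same library had a gap of 92.7% for P2ry12, a microglial gene, and 8.09% for Ccr2, and it held 58 microglia. Results that rest on that library are therefore given as deposited, with counts rounded up, and without it. A rounded-up value keeps any free RNA that reached a droplet, and the step behind the gap is not given in the sources used here.

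Microglia carried far more Cx3cr1 than any other cell type. Over the young brain libraries together, the level was 2383 CPM in microglia, 280 CPM in border-associated macrophages, 143 CPM in monocyte-derived cells, 65.9 CPM in dendritic cells, 41.3 CPM in granulocytes, 34.6 CPM in B cells, 10.4 CPM in NK cells and 9.97 CPM in T cells. A value above 0 was present in 73.9% of microglia (95% Clopper-Pearson interval 73.3% to 74.5%), 31.0% of border-associated macrophages (28.3% to 33.8%), 19.1% of monocyte-derived cells (18.3% to 19.8%) and 10.3% of dendritic cells (9.26% to 11.4%), and in 6.83% of granulocytes (5.48% to 8.39%) at a lower mean depth (523 counts per cell against 1073 in dendritic cells). These intervals cover counting error over cells only. Small groups of mural cells (166 CPM, 136 cells), choroid or epithelial cells (107 CPM, 75 cells) and cells coded MaC (76.1 CPM, 43 cells) also held counts. With counts rounded up the pooled level was 2318 CPM in microglia, 418 CPM in border-associated macrophages, 199 CPM in monocyte-derived cells, 123 CPM in granulocytes, 103 CPM in dendritic cells, 81.3 CPM in B cells, 53.2 CPM in T cells and 45.5 CPM in NK cells. Granulocytes thus lay above dendritic cells on that scale and below them as deposited, and no order is drawn between these types.

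Endothelial cells, a type outside the gene's known range, set the background. Their deposited counts were practically 0 in all 12 young brain libraries, yet 3.30% of 5880 cells had a value above 0 (2.86% to 3.79%), and rounding up gave 194 counts, or 45.8 CPM. The shares in brain T cells (3.80%), NK cells (3.51%) and B cells (4.04%) were close to that background, at mean depths of 689, 738 and 440 counts per cell against 688 in endothelial cells. Thinned to 300 rounded-up counts per cell, the expected share was 1.86% in T cells and 1.56% in NK cells, against 1.59% in endothelial cells. On that scale T and NK cells are read as background. As deposited they lay above endothelial cells, with 8.86 counts in T cells and 3.72 in NK cells. In B cells the thinned share was 2.75%, above endothelial cells and nearer to granulocytes (3.45%) and dendritic cells (3.21%). It rests on the 18 B cells with a value above 0, so B cells are neither read as background nor ranked.

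**Figure D1:**
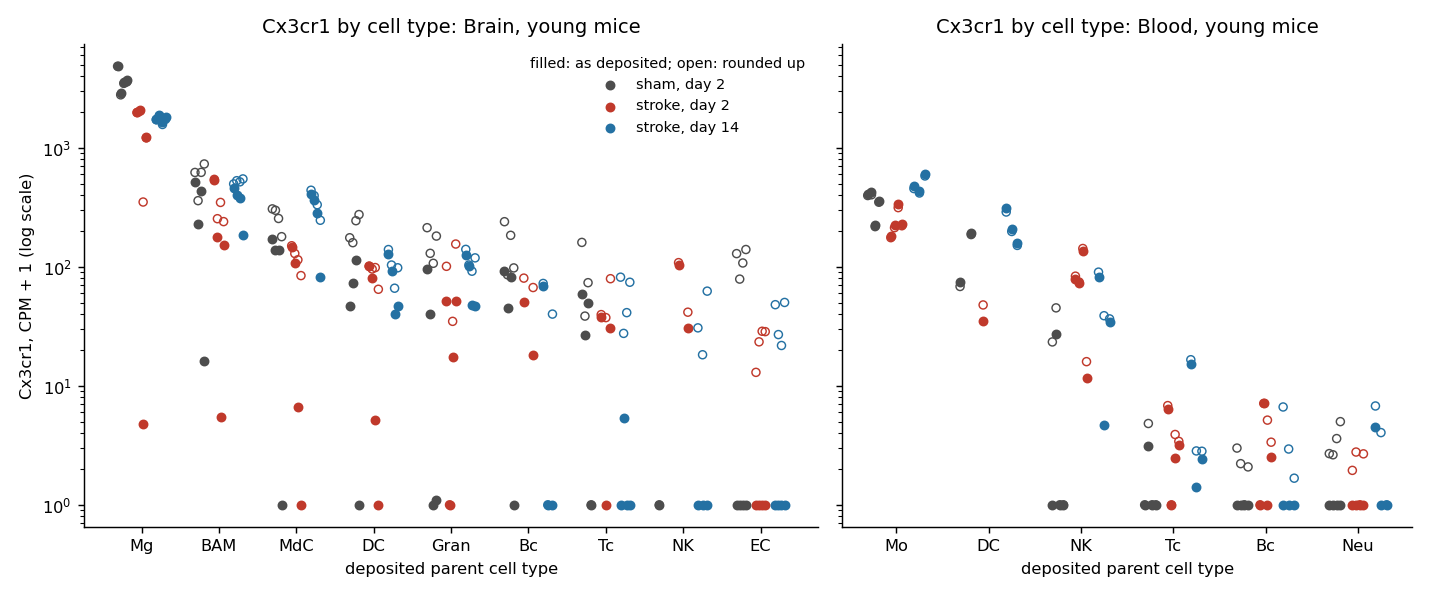
Cx3cr1 level (CPM + 1, log scale) by cell type in each young library, brain and blood, with filled points for deposited counts and open points for counts rounded up in each cell. Among types with 20 or more cells, microglia lie highest in 11 of the 12 brain libraries; the other is stroke day 2 replicate 3, with 3.77 CPM deposited and 350 CPM rounded up.

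In blood the gene belonged to monocytes. Pooled over 11 libraries the level was 365 CPM in monocytes, 180 CPM in dendritic cells, 33.9 CPM in NK cells, 3.13 CPM in T cells, 0.232 CPM in B cells and 0.150 CPM in neutrophils. A value above 0 was found in 22.7% of 6558 monocytes (21.7% to 23.7%), 15.0% of 508 dendritic cells (11.97% to 18.4%) and 2.19% of 1549 NK cells (1.52% to 3.05%). In B cells the share was 0.115% and in neutrophils 0.128%, the blood background at mean depths of 515 and 663 counts per cell against 816 in monocytes. The NK share was above that background at a mean depth of 514 counts per cell.

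Cx3cr1 transcripts thus came from few types. Microglia supplied 99.0% of all deposited Cx3cr1 counts in young sham brain, 90.2% at stroke day 2 and 87.5% at day 14, while they made up 72.4%, 18.2% and 38.5% of the cells. Monocyte-derived cells supplied 7.82% at day 2, when they were 48.7% of the cells, and 10.6% at day 14, when they were 21.6%. Blood monocytes supplied 98.2% in sham, 94.3% at day 2 and 89.0% at day 14, and blood dendritic cells reached 7.30% at day 14. With counts rounded up, microglia supplied 97.7%, 81.8% and 84.7%, and blood monocytes 95.7%, 90.7% and 86.8%. Monocyte-derived cells supplied 13.97% at day 2 and 12.05% at day 14 on that scale, so the order of the stroke times turned. These shares depend on the sort and describe the libraries.

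Within microglia the subtypes differed in level more than 3-fold. Mg1 (3993 CPM) and Mg2 (3629 CPM) were highest, Mg8 (2291 CPM) and Mg6 (2138 CPM) intermediate, and Mg7 (1628 CPM), Mg3 (1609 CPM), Mg5 (1525 CPM) and Mg4 (1171 CPM) lowest. Since the authors may have clustered on this gene, the order is a description and was not tested. It also pools groups that differ in level and in their mix of subtypes. Values within a group are given below for Mg1 to Mg5 only, so no order within a group is read for the others. Mg1 held 53.6% and Mg2 37.2% of sham microglia, Mg4 38.4% and Mg5 33.8% of those at stroke day 2, and Mg3 66.1% of those at day 14, so different subtypes make up the class in each group. Inside Mg1 the pooled level was 4027 CPM in sham, 3611 CPM at day 2 and 3887 CPM at day 14, and inside Mg2 it was 3702, 2878 and 3477 CPM. In Mg3 it was 2683, 1622 and 1595 CPM, in Mg4 2560, 1095 and 1491 CPM, and in Mg5 2861, 1485 and 1493 CPM. The few sham cells of Mg3, Mg4 and Mg5 (93, 124 and 116 cells) were above the stroke cells of the same code.

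Pooled over the groups, monocyte-derived subtypes ranged from MdC6 (327 CPM) and MdC5 (240 CPM) over MdC4 (139 CPM) and MdC3 (115 CPM) to MdC1 (70.3 CPM) and MdC2 (46.9 CPM). MdC1 (31.4%) and MdC2 (28.8%) led at day 2, MdC6 (34.0%), MdC4 (24.7%) and MdC5 (22.4%) at day 14, and MdC3 made up 76.4% of the sham cells. All 6 subtypes were higher at day 14 than at day 2 in the pooled values: with counts rounded up, MdC1 went from 132 to 247 CPM, MdC2 from 79.0 to 115 CPM, MdC3 went from 117 to 414 CPM, MdC4 from 107 to 303 CPM, MdC5 from 194 to 439 CPM and MdC6 from 295 to 394 CPM. The pooled order did not hold within a group: at day 14 MdC5 and MdC3 were above MdC6, and at day 2 MdC1 was above MdC3 and MdC4. In sham, MdC3 had 233 CPM on that scale. Border-associated macrophages had 355 CPM in BAM1, 268 CPM in BAM3, 245 CPM in BAM2 and 179 CPM in BAM4. Rounded up, BAM2 was highest (525 CPM), followed by BAM1 (421 CPM), BAM3 (318 CPM) and BAM4 (292 CPM), so no order is read among them.

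In blood, Mo3 had the highest level (608 CPM), followed by Mo5 (390 CPM), Mo1 (358 CPM), Mo4 (325 CPM) and Mo2 (186 CPM). Mo3 also carried genes of nonclassical monocytes: Treml4 was at 656 CPM there and at 16.6 CPM in Mo2, and Cd300e at 794 and 1.74 CPM. The classical genes ran the other way, with Ccr2 at 421 CPM in Mo3 and 3676 CPM in Mo2, and Chil3 at 389 and 7743 CPM. Among the dendritic subtypes of blood, DC2 was highest as deposited and pooled over the groups (308 CPM). Mo2 was 35.7% of monocytes in sham, 54.6% at day 2 and 2.42% at day 14, while Mo3 was 31.4%, 18.7% and 28.3%. Inside Mo3 the pooled level was 650 CPM in sham, 396 CPM at day 2 and 690 CPM at day 14, and inside Mo1 it was 332, 299 and 393 CPM. The 57 Mo2 cells of day 14 were at 439 CPM, so Mo2 was not the lowest in that group.

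**Figure D2:**
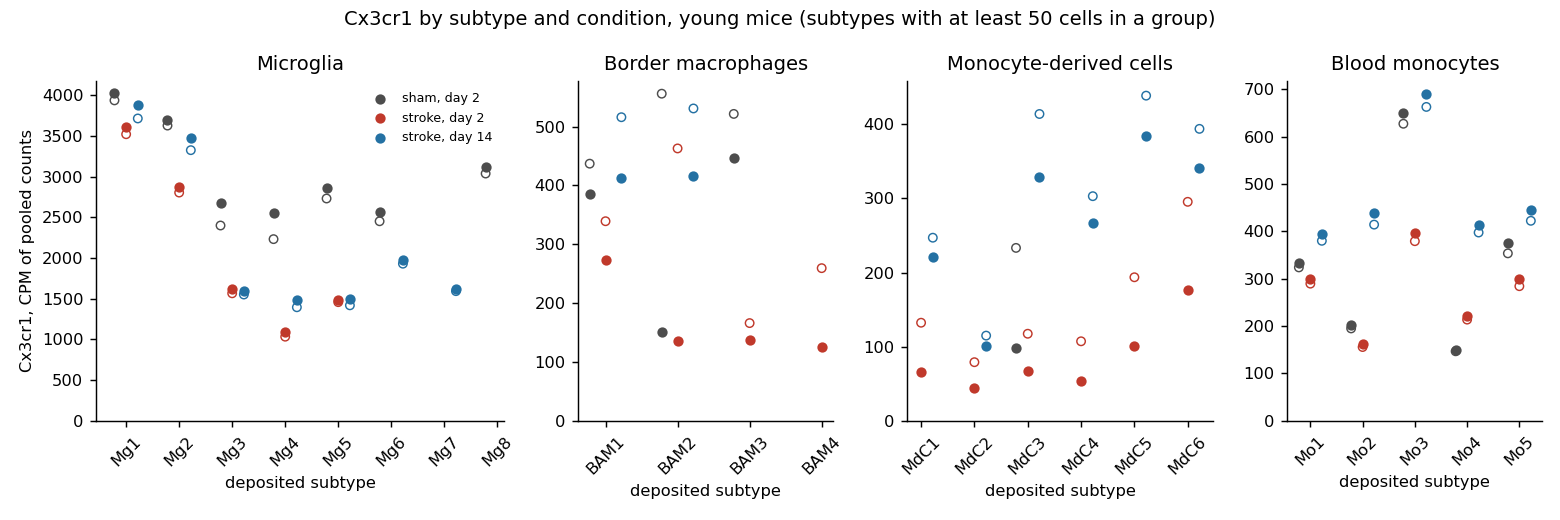
Cx3cr1 level (CPM, linear scale) by deposited subtype in the young groups, for subtypes with at least 50 cells in a group, pooled over the libraries of a group, with filled points for deposited and open points for rounded-up counts. As deposited, Mg1 and Mg2 lie between 2878 and 4027 CPM in all 3 groups, and all 6 monocyte-derived subtypes are higher at stroke day 14 than at day 2.

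Group effects in microglia were read per library. In sham the deposited levels were 4880, 2871, 3576 and 3720 CPM (mean 3762 ± 833, SD, n = 4). At stroke day 2 they were 1988, 2093, 3.77 and 1244 CPM (1332 ± 963, n = 4). At stroke day 14 they were 1733, 1887, 1636 and 1807 CPM (1766 ± 107, n = 4). All stroke libraries lay below all sham libraries, and the day 14 libraries lay close together. Rounded up, the day 2 libraries stood at 1977, 2033, 350 and 1212 CPM, so replicate 3 was lowest on both scales.

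With all libraries, Cx3cr1 was not called in microglia. The log2 fold change was -1.27 ± 0.64 (SE) at day 2 against sham (edgeR, adjusted p = 0.141) and -0.62 ± 0.63 at day 14 against sham (edgeR, adjusted p = 0.528). Of the 10145 genes tested, 31.4% were called in the day 2 comparison (15.7% higher and 15.7% lower) and 15.2% in the day 14 comparison (10.6% higher and 4.66% lower). Without stroke day 2 replicate 3 both passed: Cx3cr1 fell by 0.90 ± 0.21 on the log2 scale at day 2 (edgeR, adjusted p = 0.00985) and by 0.63 at day 14 (edgeR, adjusted p = 0.0487), among 27.5% and 14.4% of genes called. With counts rounded up and that library left out, the values were -0.90 (adjusted p = 0.00962, edgeR) and -0.67 (adjusted p = 0.0376, edgeR), with 29.1% and 15.8% called. The library left out belongs to neither group of the day 14 comparison. Of 21 settings without a replicate block, these 2 alone called the day 14 fall. The fit of sham and day 14 libraries alone did not call it. Day 14 did not differ detectably from day 2 (0.65 ± 0.63, edgeR, adjusted p = 0.616), where 6.93% of genes were called (3.47% higher and 3.46% lower). Without stroke day 2 replicate 3 that value was 0.27 ± 0.21 (edgeR, adjusted p = 0.530). Scaled to library size without TMM, the edgeR normalization, day 14 against sham was -1.08 (edgeR, adjusted p = 0.167). The CPM values carry no TMM scaling and so lie on that scale. The falls given here are relative to all counts of a cell. Pooled deposited Cx3cr1 counts were 21056 in 10874 sham cells, 6730 in 2693 day 2 cells and 10963 in 5170 day 14 cells. Counts of the gene per cell were thus not lower after stroke, while all counts per cell were higher.

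Markers of microglia moved beside the receptor. The summed level of P2ry12, Tmem119, Siglech, Fcrls, Sall1, Gpr34, P2ry13 and Slc2a5, none of them at 0 in microglia of any young group, was 10377 to 13228 CPM in sham, 1865 to 6702 CPM at day 2 and 4714 to 5786 CPM at day 14 (rounded-up counts). Cx3cr1 per 100 counts of those 8 genes was 32.3 ± 4.06 in sham, 25.0 ± 6.90 at day 2 and 33.4 ± 4.93 at day 14 (SD, n = 4 each). The 3 ranges overlapped. Genes of classical monocytes were read in microglia as well. Of 6 on the list, 3 were tested in microglia, Ccr2, Ly6c2 and Plac8, and their median log2 fold change against sham was 4.96 at day 2 and 3.48 at day 14, against -0.05 and -0.04 over all genes. Plac8 at day 2 alone was called among them, a call lost without stroke day 2 replicate 3. Their summed level was 19.9 to 27.6 CPM in sham, 44.7 to 311 CPM at day 2, with the highest value in replicate 3, and 64.8 to 106 CPM at day 14 (rounded-up counts), so the stroke libraries lay above all sham libraries on that scale. As deposited the groups overlapped, with up to 15.5 CPM in sham, 710 CPM at day 2 and 62.0 CPM at day 14, and at least 1 library of each group practically at 0. The part of either set of markers in the Cx3cr1 result was not tested.

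Cells were also compared at equal counts per cell. Pooled counts per microglial cell were 515 in sham, 1636 at day 2 and 1210 at day 14, against 487, 823 and 701 in endothelial cells. Depth of reading and RNA content of a cell cannot be told apart in these counts. The thinned shares, like CPM, are therefore relative to all counts of a cell. Each cell was thinned to 300 of its rounded-up counts, and the expected share of cells with at least 1 Cx3cr1 count was computed. In microglia the share was 64.0% ± 7.86 in sham, 32.4% ± 15.8 at day 2 and 39.9% ± 1.06 at day 14 (SD, n = 4 each), against 78.0%, 71.7% and 73.5% before thinning, when the groups overlapped and the mean of the libraries' median depths was 463, 787 and 1252 counts per cell. After thinning, neither stroke group overlapped with sham, and each comparison gave the smallest p that 4 against 4 libraries allow (exact two-sided permutation test, p = 0.0286, adjusted over 9 comparisons 0.0643). Without stroke day 2 replicate 3 the day 2 share was 39.9% ± 6.19 (SD), again with no overlap with sham. The values adjusted over 9 comparisons miss the threshold of 0.05. With so few libraries they could pass only if most of the comparisons reached their smallest p. The miss is therefore not read as absence of a difference.

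**Figure D3:**
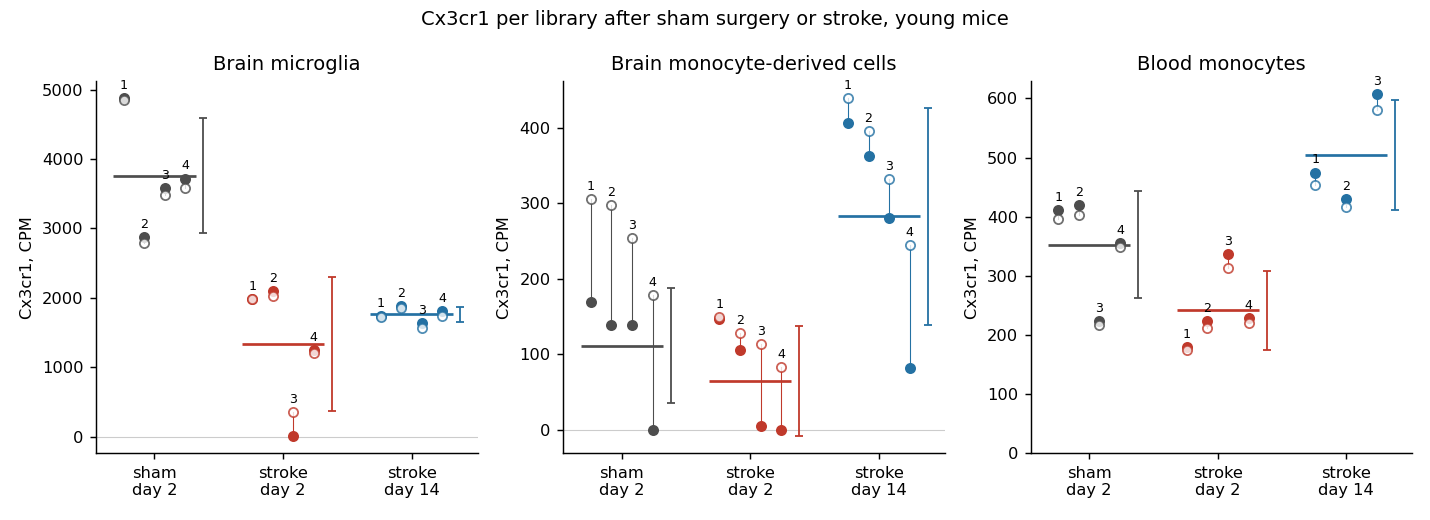
Cx3cr1 level (CPM) per library by young group in microglia, monocyte-derived cells and blood monocytes, with filled points for deposited and open points for rounded-up counts, digits for replicate numbers, and horizontal lines for the mean and error bars for the SD of the deposited values. In microglia the sham libraries (2871 to 4880 CPM) lie above all stroke libraries, and stroke day 2 replicate 3 lies apart at 3.77 CPM.

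Monocyte-derived cells, the infiltrating counterpart, were lowest at day 2 and highest at day 14. Deposited levels were 170, 139, 138 and 0 CPM in sham, 147, 106, 5.58 and 0 CPM at day 2, and 407, 362, 280 and 81.7 CPM at day 14. Rounded up they were 306, 298, 254 and 178 CPM in sham, 149, 128, 114 and 83.4 CPM at day 2, and 439, 396, 332 and 245 CPM at day 14. On the rounded-up scale the day 2 libraries lay below all others. The gap of the deposited counts was 47.1% to 100% in sham, 6.79% to 100% at day 2 and 10.4% to 71.5% at day 14, so the 2 scales differ widely in this cell type.

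As deposited, no difference was called: day 2 against sham -0.71 ± 1.12 (edgeR, adjusted p = 0.808), day 14 against sham 1.48 ± 1.09 (edgeR, adjusted p = 0.578) and day 14 against day 2 2.195 ± 0.92 (edgeR, adjusted p = 0.347), with 6.71% (5.66% higher, 1.05% lower), 5.15% (4.21% higher, 0.941% lower) and 1.79% (0.829% higher, 0.965% lower) of 8080 genes called. With counts rounded up, the rise from day 2 to day 14 was 1.55 ± 0.25 (edgeR, adjusted p = 0.00421), and it was 1.54 without stroke day 2 replicate 3 (edgeR, adjusted p = 0.0197). On those settings 2.31% and 1.28% of genes were called. As deposited and without that library the value was 1.82 (edgeR, adjusted p = 0.627, 0.87% of genes called). Leaving out 1 library moved day 2 against sham between -1.57 and -0.34 and day 14 against sham between 1.20 and 1.84, and with counts rounded up these stood at -0.83 and 0.73, none of them called. Same-numbered stroke libraries of day 2 and day 14 deviated together in this cell type (r of 0.27 to 0.76 in 4 of 4 pairs). With the replicate number as a block, the deposited rise from day 2 to day 14 was 3.04 ± 0.49 (edgeR, adjusted p = 9.8e-05), with 5.8% of genes called. In that fit day 14 against sham was 2.13 ± 0.65 (edgeR, adjusted p = 0.0438, 6.41% of genes called), although only 1 of 4 sham and day 14 pairs had an r over 0.1. Of the 8080 genes tested as deposited, 39 had a higher log2 fold change between the stroke times. That deposited value was not called without the block and was 1.55 with counts rounded up, so its rank is not read as a result.

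Thinned to 300 rounded-up counts, 7.13% ± 1.56 of monocyte-derived cells held Cx3cr1 in sham, 3.65% ± 0.78 at day 2 and 9.90% ± 2.31 at day 14 (SD, n = 4 each). These shares thus lie on the rounded-up scale, which keeps free RNA and differs widely from the deposited one in this type. The day 2 libraries overlapped with neither sham nor day 14 (exact permutation test, two-sided, p = 0.0286 each, adjusted over 9 comparisons 0.0643), and day 14 overlapped with sham (exact permutation, p = 0.114). Thinned to 600 counts, day 2 overlapped with sham (6.64% ± 0.92 against 13.8% ± 6.60, exact permutation p = 0.143) and not with day 14 (17.9% ± 4.20, exact permutation p = 0.0286). Without thinning, the shares were 17.0%, 13.7% and 31.4%, and all 3 comparisons overlapped (exact permutation p = 0.486 for day 2 against sham, 0.114 for day 14 against sham and 0.0857 between the stroke times). The endothelial background, thinned alike, was 2.21% to 5.10% in sham, 0.483% to 1.15% at day 2 and 0.747% to 1.48% at day 14, so it too was highest in sham, and its part in the monocyte-derived values was not tested. Per 100 counts of the 8 microglial genes, monocyte-derived cells held 77.8 ± 23.3 Cx3cr1 counts in sham, 42.0 ± 15.1 at day 2 and 87.9 ± 16.9 at day 14, against 43.9 ± 16.8, 30.1 ± 11.5 and 40.6 ± 11.7 in endothelial cells. The summed level of the 8 genes in monocyte-derived cells was 223 to 510 CPM, 247 to 358 CPM and 344 to 534 CPM.

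**Figure D4:**
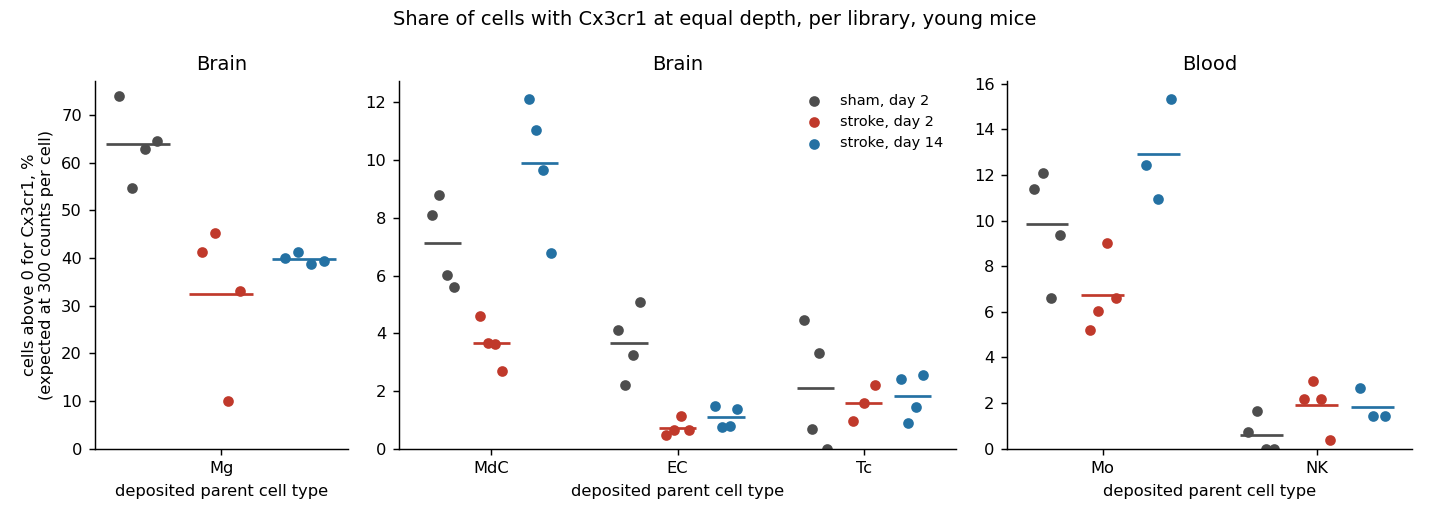
Share of cells (percent) with at least 1 Cx3cr1 count expected after thinning each cell to 300 counts, per young library with at least 20 cells of the type, for microglia (Mg), monocyte-derived cells (MdC), endothelial cells (EC) and T cells (Tc) of the brain and monocytes (Mo) and NK cells of the blood, with lines for the group means. Counts were rounded up in each cell before thinning. Microglia range from 54.8% to 74.0% in sham and from 10.0% to 45.3% at stroke day 2, and monocyte-derived cells from 2.70% to 4.61% at day 2 and from 6.79% to 12.1% at day 14.

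**Figure D5:**
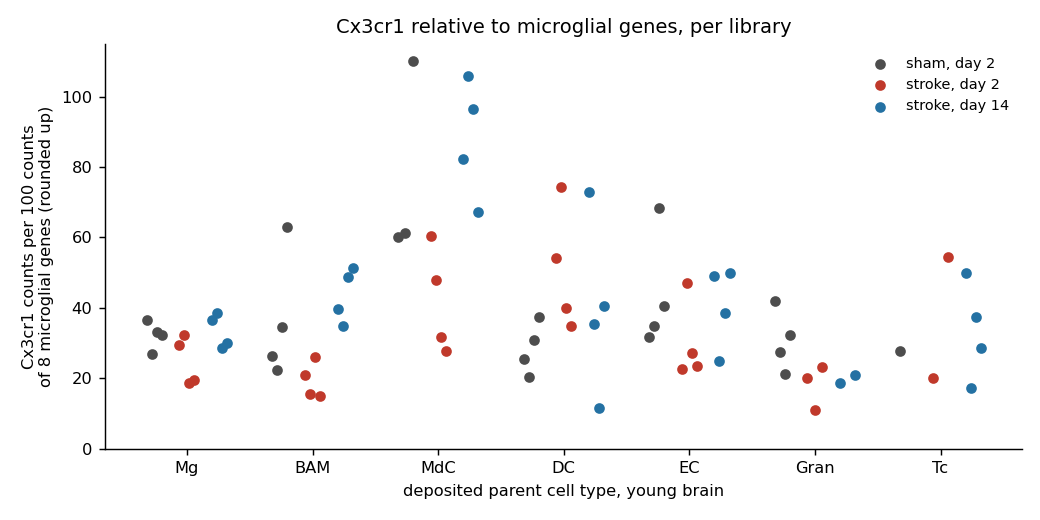
Cx3cr1 counts per 100 counts of 8 microglial genes (linear scale, rounded-up counts) in 7 parent types of the brain, with a point for each young library that has at least 20 cells of the type and 10 counts of those genes. Microglia lie between 18.8 and 38.7 and monocyte-derived cells between 27.8 and 110.

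Border-associated macrophages had 516, 227, 431 and 15.3 CPM in sham, 537, 176, 4.51 and 153 CPM at day 2, and 459, 401, 378 and 186 CPM at day 14. Those groups overlapped, and no comparison was called: -0.73 ± 0.71 for day 2 against sham (edgeR, adjusted p = 0.563), 0.20 ± 0.70 for day 14 against sham (edgeR, adjusted p = 0.999) and 0.93 ± 0.75 between the stroke times (edgeR, adjusted p = 0.583). Of 1313 genes, 2.67% (1.75% higher, 0.914% lower), 0.0762% (all higher) and 0.838% (0.381% higher, 0.457% lower) were called. Without stroke day 2 replicate 3 the first value was -0.17 and the last 0.41, and neither was called. Rounded up, the level was 583 ± 158 CPM in sham, 345 ± 140 CPM at day 2 and 522 ± 21.2 CPM at day 14 (SD, n = 4 each).

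Dendritic cells of the brain had 45.6, 71.6, 112 and 0 CPM in sham, 99.7, 79.1, 4.198 and 0 CPM at day 2, and 127, 91.6, 39.1 and 45.9 CPM at day 14, again with overlap. None of the 3 comparisons was called (log2 fold changes -0.22, 0.52 and 0.74, edgeR, adjusted p = 0.974, 0.918 and 0.795), with 1.01% (0.687% higher, 0.321% lower), 1.53% (1.03% higher, 0.504% lower) and 0.893% (0.435% higher, 0.458% lower) of 4365 genes called. Without stroke day 2 replicate 3 the day 2 value changed sign to 0.20. Over all settings without a replicate block it ranged from -1.12 to 0.24 and was never called. Rounded up, sham was highest in this type (159 to 274 CPM, against 63.8 to 100 CPM at day 2 and 65.1 to 139 CPM at day 14). The endothelial background was highest in sham as well on that scale, at 111, 22.5 and 37.9 CPM pooled over the groups, and its fall at day 2 was called (-2.15, edgeR, adjusted p = 0.00118, with 14.8% of genes called). Its part in the dendritic and border-associated values was not tested.

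Blood monocytes, the circulating counterpart, had a small gap of 0.208% to 2.73%. Their levels were 412, 421, 223 and 356 CPM in sham (353 ± 91.1, n = 4), 180, 223, 336 and 229 CPM at day 2 (242 ± 66.5, n = 4) and 475, 430 and 608 CPM at day 14 (504 ± 92.6, n = 3). All day 14 libraries lay above all day 2 and all sham libraries, and day 2 overlapped with sham. Between the stroke times the log2 fold change was 1.02 ± 0.23 (edgeR, adjusted p = 0.0620), just short of the threshold, where 0.537% of 6706 genes were called (0.0895% higher and 0.447% lower). It passed with DESeq2 (1.03, adjusted p = 0.00391, 0.844% of genes called) and with counts rounded up (1.04, edgeR, adjusted p = 0.0471). It also passed without blood stroke day 2 replicate 3 (1.22, edgeR, adjusted p = 0.0223) and without blood sham replicate 3 (1.03, edgeR, adjusted p = 0.0266). Leaving out any of the other 9 libraries left it uncalled, with an adjusted p of up to 0.324 by edgeR. It was also not called without TMM (1.06, edgeR, adjusted p = 0.0786) or with the replicate number as a block (1.05, edgeR, adjusted p = 0.0872). Day 2 against sham (-0.52 ± 0.22, edgeR, adjusted p = 0.9998) and day 14 against sham (0.51 ± 0.23, edgeR, adjusted p = 0.842) were not called, with 0% and 0.254% of genes called (0.104% higher and 0.149% lower in the second).

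The thinned share of blood monocytes with Cx3cr1 was 9.85% ± 2.46 in sham (n = 4), 6.72% ± 1.63 at day 2 (n = 4) and 12.9% ± 2.24 at day 14 (n = 3, SD). Day 14 did not overlap with day 2 (exact two-sided permutation test, p = 0.0571, the smallest that 3 against 4 libraries allow, adjusted over 9 comparisons 0.103). Day 2 against sham gave p = 0.0857 and day 14 against sham p = 0.229 (exact permutation tests). Fewer cells of a high subtype and fewer transcripts per cell cannot be told apart in summed counts. Mo2, lowest in the pooled values, was most frequent at day 2, and inside Mo3 the pooled level was also lower at day 2 than in sham (396 against 650 CPM); the part of either was not tested.

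Blood NK cells, in which the receptor is known on mature cells, had 0, 26.3, 0 and 0 CPM in sham, 78.2, 71.9, 136 and 10.6 CPM at day 2, and 81.9, 3.69 and 33.4 CPM at day 14. They rest on 27.0 deposited counts over all libraries, and Cx3cr1 did not pass the filter on low counts in them. Without the filter no comparison was called: 3.48 at day 2 against sham (edgeR, adjusted p = 0.903), 2.92 at day 14 against sham (edgeR, adjusted p = 0.893) and -0.56 between the stroke times (edgeR, adjusted p = 0.857). DESeq2 gave 3.67, 2.74 and -0.92, none called. The values against sham depend on a group with 3 of 4 libraries at 0 as deposited and are not read as folds. Rounded up and pooled, the level was 19.0 CPM in sham, 67.5 CPM at day 2 and 55.0 CPM at day 14, from 5, 12 and 23 counts. Blood dendritic cells, in the libraries with at least 20 of them, had 73.0 and 192 CPM in sham, 33.8 CPM at day 2 (1 library) and 312, 209 and 156 CPM at day 14.

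Infiltrated and circulating cells were set against each other at the same time after stroke. Brain and blood tables differ in their gap (6.79% to 100% in monocyte-derived cells and 0.590% to 2.73% in monocytes at day 2), in their dissociation and in the genes listed, so tissue and preparation cannot be told apart. At day 2 the log2 fold change of Cx3cr1 in monocyte-derived cells against blood monocytes was -1.73 ± 0.84 (edgeR, adjusted p = 0.139), and at day 14 it was -0.55 ± 0.85 (edgeR, adjusted p = 0.720), where 28.6% (15.5% higher, 13.1% lower) and 17.8% (10.5% higher, 7.25% lower) of 7651 genes were called. With counts rounded up, the day 2 difference passed (-0.75, edgeR, adjusted p = 0.0189), also without brain stroke day 2 replicate 3 (-0.74, edgeR, adjusted p = 0.0453), with 30.8% and 26.7% of genes called. As deposited, leaving out that library gave -1.34 (edgeR, adjusted p = 0.244), and leaving out brain stroke day 2 replicate 1 gave -2.57 (edgeR, adjusted p = 0.0488). With the replicate number as a block the day 2 value was -2.48 ± 0.83 (edgeR, adjusted p = 0.0356, 28.3% of genes called), although 0 of 4 same-numbered brain and blood libraries of day 2 had an r over 0.1.

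Microglia of aged mice had 2897 CPM (male) and 3457 CPM (female) in sham, 1299 CPM (male), 1423 and 1781 CPM (female) at stroke day 2 and 1840 CPM in the single day 14 library. The sham and stroke libraries did not overlap. The fit, which also holds the young day 2 libraries, gave -1.01 ± 0.76 for stroke against sham (edgeR, adjusted p = 0.579), where 2.3% of 11096 genes were called (1.78% higher and 0.523% lower). Without young stroke day 2 replicate 3 it was -1.01 ± 0.27 (edgeR, adjusted p = 0.0565). With counts rounded up and the same library left out, Cx3cr1 fell by 1.11 (edgeR, adjusted p = 0.0315). Aged and young sham did not differ detectably (-0.18 ± 0.74, edgeR, not called, 0.018% of genes called), and the interaction of age and stroke was 0.22 ± 0.98 (edgeR, adjusted p = 0.9999, 0% of genes called). Both values come from the fit that holds young stroke day 2 replicate 3. Young libraries were all male, the aged ones were of both sexes, and aged brain has its own table. These comparisons are thus not of age alone. In aged brain Mg1 (3643 CPM) and Mg2 (3337 CPM) were again the highest of the large subtypes and Mg4 (849 CPM) the lowest.

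The ligand Cx3cl1 was sparse in endothelial cells, with 0 to 55.3 CPM in sham (21.2 ± 26.6), 17.4 to 50.6 CPM at day 2 (29.2 ± 14.7) and 25.8 to 51.6 CPM at day 14 (39.6 ± 12.7, SD, n = 4 each), from 28.8, 58.7 and 49.5 counts. The groups overlapped, and the ligand was not called (0.09 ± 0.56 at day 2, edgeR, adjusted p = 0.937, and 0.51 ± 0.57 at day 14, edgeR, adjusted p = 0.979), with 13.3% (6.89% higher, 6.45% lower) and 0% of 5833 genes called. Between the stroke times it was 0.42 ± 0.51 (edgeR, adjusted p = 0.638), with 11.2% of genes called (5.07% higher, 6.14% lower). Of the chemokine receptors in these cells, Ccrl2 fell from 67.4 ± 17.1 to 18.0 ± 13.3 CPM at day 2 (-1.66, edgeR, adjusted p = 0.0306) and was higher again at day 14 than at day 2 (1.73, edgeR, adjusted p = 0.0235). Ackr3, an atypical receptor that takes up Cxcl12, also was higher at day 14 than at day 2 (1.40, edgeR, adjusted p = 0.0409), a call lost without stroke day 2 replicate 3 (1.18, edgeR, adjusted p = 0.125). Neurons, the other source of the ligand, were not sorted.

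Other members of the axis were measured in the cells that carry the receptor. Of the 8 listed genes (Cx3cl1, Adam10, Adam17, Ctss, Gnai2, Gnai3, Grk2 and Arrb2), 7 were tested in microglia. At day 2, 0 rose and 2 fell, Arrb2 (beta-arrestin 2, which uncouples and internalizes receptors) and Grk2 (a kinase of active receptors), with a list median of -0.40 against -0.05 over all genes. The share of all genes lower there was 15.7%, so a count of 2 in 7 is not read as particular to the axis. Arrb2 fell from 552 ± 19.6 CPM to 312 ± 24 CPM (-0.67, edgeR, adjusted p = 0.0293) and Grk2 from 147 ± 34.0 to 53.8 ± 38.3 CPM (-1.09, edgeR, adjusted p = 0.0494). Without stroke day 2 replicate 3 the Arrb2 call held (-0.59, edgeR, adjusted p = 0.0470) and the Grk2 call was lost (-1.002, edgeR, adjusted p = 0.0580). At day 14, 1 rose and 1 fell, where 10.6% of all genes were higher and 4.66% lower: Ctss, a lysosomal protease, rose from 7632 ± 817 to 12028 ± 1033 CPM (1.12, edgeR, adjusted p = 0.0223) and Arrb2 fell to 256 ± 48.2 CPM (-0.65, edgeR, adjusted p = 0.0496). Ctss was also higher at day 14 than at day 2 (1.52, edgeR, adjusted p = 0.00823). Here and below, CPM values carry no TMM scaling while the edgeR fold changes do. The 2 are thus on different scales and need not match in size.

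In monocyte-derived cells Ctss rose at both times (1.77 at day 2 and 2.29 at day 14, edgeR, adjusted p = 0.0102 and 0.00218), from 2166 ± 911 CPM in sham to 5525 ± 556 and 8088 ± 1413 CPM. Grk2 fell at day 2 (-1.53, edgeR, adjusted p = 0.0220), a call that was lost without stroke day 2 replicate 3 (-1.44, edgeR, adjusted p = 0.0590). Sham and stroke cells of this type differ in their mix of subtypes, as given above. The part of that mix in these values was not tested. None of the 7 tested axis genes was called in blood monocytes in any of the 3 comparisons, where 0%, 0.254% and 0.537% of all genes were, so nothing is read from that count. Against blood monocytes of the same day, Ctss and Arrb2 were higher in monocyte-derived cells at both times (1.24 and 1.08 at day 2, 1.87 and 1.13 at day 14, edgeR, called), with Adam10 (0.66) added at day 2 and Adam17 (1.33) at day 14. So 3 of 7 axis genes were higher at each time, where 15.5% of all genes were at day 2 and 10.5% at day 14.

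Other chemokine receptors were read from a list beside Cx3cr1, of which the counts cover all tested members. In microglia 1 of 4 fell at day 2 and 1 of 4 at day 14 against sham, and none rose, where 15.7% and 4.66% of all genes were lower. Cxcr4 did not pass the filter on low counts with all libraries. It passed without stroke day 2 replicate 3 and was then called at day 14 against sham (7.80, edgeR, adjusted p = 0.0413). That library belongs to neither group compared. In a gene so close to the filter the value is not read as a fold, and nothing is read from the call. In monocyte-derived cells 1 of 5 rose at day 2, a call lost without stroke day 2 replicate 3, and 1 of 5 at day 14, where 5.66% and 4.21% of all genes were higher. At day 14 that was Ccrl2, an atypical receptor that binds chemerin (1.49, edgeR, adjusted p = 0.00671). In blood monocytes Ccr1, an inflammatory chemokine receptor, was lower at day 14 than at day 2 (-2.28, edgeR, adjusted p = 0.0110), with 51.7 ± 21.5 against 256 ± 137 CPM. Against blood monocytes, 4 of 5 were higher in monocyte-derived cells at day 2 and 4 of 5 at day 14, where 15.5% and 10.5% of all genes were. Ccr1, Ccrl2 and Cxcr4 were among them at day 2 (1.67, 5.51 and 2.80), and Ccr2 was lower (-1.02, edgeR, adjusted p = 0.0214). At day 14 Ccr1, Ccrl2 and Cxcr4 were again among the higher ones (2.69, 6.89 and 3.63), and Ccr2 was not called.

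Monocyte state genes were read beside Cx3cr1. In blood monocytes between day 2 and day 14, 1 of 6 classical genes fell (Chil3, -2.12, edgeR, adjusted p = 0.00253) and none of 9 nonclassical genes was called, where 0.447% of all genes were lower and 0.0895% higher, so nothing is read from the second count. The medians were -0.55 for the classical and 0.64 for the nonclassical list against -0.01 over all genes. In monocyte-derived cells against sham, 4 of the 7 tested nonclassical genes fell at day 2 and 4 at day 14, at each time Spn, Pglyrp1, Itgal and Treml4, where 1.05% and 0.941% of all genes were lower. Without stroke day 2 replicate 3, Itgal was not called at day 2 (-1.81, edgeR, adjusted p = 0.0735). The mix of monocyte-derived subtypes also differs between sham and stroke, and its part in these falls was not tested. Of the 6 classical genes, none was called at day 2, and at day 14 Ly6c2 rose (2.05) while Chil3 (-2.71) and F13a1 (-1.17) fell, by edgeR. Between the stroke times Chil3 fell (-2.57, edgeR, adjusted p = 0.00778), and none of the 7 nonclassical genes was called, where 0.829% of all genes were higher and 0.965% lower, so nothing is read from that count. Against blood monocytes 4 of 6 classical genes were lower at day 2 and 3 of 6 at day 14, and none was higher. F13a1 (-1.38 at day 2, -1.27 at day 14) and Chil3 (-1.31 and -1.78) were among them at both times and Ccr2 at day 2, with Chil3 at day 2 not called without stroke day 2 replicate 3 (edgeR, adjusted p = 0.0649). At day 2, when 13.1% of all genes were lower, 7 of 9 nonclassical genes were lower (6 without that library, Fabp4 not called at an edgeR adjusted p = 0.0711) and Nr4a1, a transcription factor gene of nonclassical monocytes that also responds to stimulation, was higher (1.84, edgeR, adjusted p = 0.000207). At day 14, when 7.25% of all genes were lower, 7 of 9 were lower and Nr4a1 was higher (1.49). Elsewhere Plac8 rose in brain dendritic cells (2.10 at day 2, 1.73 at day 14) and in day 2 microglia (4.96, edgeR, adjusted p = 0.0370, lost at 0.0691 without that library), and Ace, an endothelial enzyme gene that is also on the nonclassical list, rose in endothelial cells at day 2 (2.28) and was lower at day 14 than at day 2 (-2.51).

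The genes whose pattern was most like Cx3cr1 were sought by Pearson's r of log2(CPM + 10) across pooled subtypes of at least 100 cells, which share libraries, so r is a description. Over 44 brain subtypes and 5273 genes the most alike included Csf1r (r = 0.941), the receptor on which microglia depend for survival, C1qc (0.937), Hpgds (0.935), C1qa (0.933), C1qb (0.932), Trem2 (0.923), Itgb5 (0.915), Olfml3 (0.913) and Hk2 (0.911). Of these genes, Csf1r, Hpgds, Itgb5 and Hk2 were highest in Mg1, the subtype highest for Cx3cr1, while the complement genes and Trem2 were highest in Mg7 and Olfml3 in Mg8. Over 31 blood subtypes and 4305 genes they were Cyp4f16 (0.956), Clec4a1 (0.940), Ptpro (0.932), Tifab (0.922), Hpgd (0.920), Cln8 (0.919), Ccdc88a (0.916), Pid1 (0.913), Aif1 (0.913) and Tmem51 (0.912). The brain and blood lists share no gene.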

How the data were processed

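Drop-seq libraries of brain and blood were used as deposited. The authors deposited estimated counts per gene and cell, which are fractional. Reads were assigned to mm10 and Seurat was used, per the submitters' processing notes. The aligner, counter, cell filters and the step that made counts fractional are not given in the sources used here. The authors also deposited, per cell, the count of detected genes, the percent of mitochondrial counts and the cell type codes, which were used as given.

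Estimated counts were summed per library and parent type (at least 20 cells), rounded to whole numbers and tested with edgeR 4.0.16 (quasi-likelihood, TMM, filterByExpr, all young groups of a tissue in 1 fit), with Benjamini-Hochberg adjustment over all genes and a threshold of 0.05. DESeq2 1.42.0 was an alternative. The scripts were tested on simulated data. Of 23 comparisons of Cx3cr1 written down, 20 could be tested. As deposited, with all libraries and no block, 0 were called by edgeR. Some were called under other settings, as given with each result. Cells were thinned to 300 rounded-up counts, leaving out shallower cells, and shares were compared with exact permutation tests. Types were compared with each other as a description. Pairing by replicate number was read from the correlation of deviations in microglia, monocyte-derived cells and blood monocytes. Only monocyte-derived cells of the stroke times had 4 of 4 pairs over 0.1. Microglia of the stroke times had 3 of 4 (r of 0.0671 to 0.550), and blood monocytes of sham and day 2 had 3 of 4 (-0.265 to 0.417). Pairing in those types is left undecided. Scrublet (scanpy 1.11.5) marked 0% to 0.972% of cells per library, too few to count as a working doublet call, so doublets were left in. Rounding each value up and leaving out 1 library were chosen after seeing the data. The gene and the lists were chosen with earlier results of these data known. The text names list genes that passed the threshold, and the 10 genes most like Cx3cr1 in each tissue. Some of these genes are not reported here. Library size limits precision, and intervals cover counting error only.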

Additional observations from a re-analysis of the deposited data

Results flagged for a closer look

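Groups of 4 libraries were searched for a library far from the others, in 16 groups and 4 quantities, where chance flags about 1 group in 20. That rate applies to each quantity, so chance alone would give about as many flags as were found. In microglia of stroke day 2, replicate 3 lacked 99.8% of its rounded-up Cx3cr1 counts, against 1.66% to 6.12% in the other libraries of that group. In blood NK cells of sham, replicate 2 had 26.3 CPM and the others were at 0, as deposited. In brain dendritic cells of stroke day 2, replicate 4 had 63.8 CPM after rounding up, against 94.96 to 100.4 CPM in the others.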

How the results depend on the processing

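Values are log2 fold changes of Cx3cr1 unless named otherwise, and where a cause is not given it was not tested. Microglia at day 2 against sham stood at -0.90 with cells of at least 800 counts and at -0.90 with rounded-up counts and stroke day 2 replicate 3 left out (both called), and ranged from -1.52 to -0.90 with 1 library left out. That replicate held 58 microglia with 26321 counts in all. The setting of at least 800 counts may therefore leave it out too, here and in the aged fits, and is not read as independent. At day 14 against sham they stood at -0.67 with rounded-up counts without that library (called) and at -1.08 without TMM (not called), and ranged from -0.72 to -0.53. Day 14 against day 2 ranged from 0.27 to 0.90. Aged microglia stood at -1.07 (at least 800 counts) and -1.11 (rounded up without that library), both called. The aged against young sham difference ranged from -0.32 to 0.072, and the interaction turned to -0.19 and -0.24 under those settings and ranged from -0.15 to 0.40. Monocyte-derived cells at day 14 against day 2 stood at 1.55 rounded up and 1.54 rounded up without the library (both called). At day 2 against sham they ranged from -1.57 to -0.34, and at day 14 against sham they stood at 0.70 rounded up without the library and ranged from 1.20 to 1.84. Against blood monocytes at day 2 they stood at -0.75 and -0.74 (both called) and ranged from -2.57 to -1.32. Border-associated macrophages at day 14 against sham turned to -0.12 rounded up and -0.11 without the library, ranging from -0.052 to 0.57; at day 2 against sham they ranged from -1.64 to -0.17 and between the stroke times from 0.41 to 1.83. Brain dendritic cells turned to 0.12 at day 2 with no filter, ranging from -0.97 to 0.24, and at day 14 to -0.86 rounded up and -0.85 without the library. Blood monocytes at day 14 against day 2 were called with DESeq2 (1.03), no filter (1.06), rounding up (1.04), at least 800 counts (1.09) and only the groups compared (1.02), and ranged from 0.91 to 1.22.

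With the replicate number as a block (replicate block), monocyte-derived cells stood at 2.13 at day 14 against sham and 3.04 against day 2, and at -2.48 against blood monocytes at day 2, all called. The labels do not say that a number pairs libraries, and same-numbered pairs correlated above 0.1 in 5 of 12 pairs in microglia, 5 of 12 in monocyte-derived cells and 5 of 10 in blood monocytes. In monocyte-derived cells 4 of 4 pairs of the stroke times did so, against 0 and 1 of 4 pairs with sham. In microglia 3 of 4 pairs of the stroke times did so, and Cx3cr1 was not called there with the block. In the fit of monocyte-derived cells with blood monocytes, 7 of 21 pairs did so, and 0 of the 4 brain and blood pairs of day 2.

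The mean level in sham monocyte-derived cells was 259 CPM rounded up, and that of day 14 microglia 1925 CPM as a mean over cells. Counting only values of at least 0.5, 5.39% of sham and 6.00% of day 2 monocyte-derived cells and 52.2% of day 2 microglia held the gene. The thinned difference of microglia between the stroke times ranged from -0.0324 to 11.7 percentage points with 1 library left out.

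Counts of called genes moved by over 1.5 times in several comparisons. In microglia they were 1544 at day 14 against sham (1187 to 3425) and 703 between the stroke times (426 to 1157), in monocyte-derived cells 542 (117 to 677), 416 (103 to 518) and 145 (89 to 469), and in blood monocytes 0 (0 to 13), 17 (13 to 97) and 36 (35 to 128). In endothelial cells they were 778 (45 to 892), 0 (0 to 14) and 654 (404 to 694), in border-associated macrophages 35 (0 to 46), 1 (0 to 14) and 11 (0 to 24), in brain dendritic cells 44 (0 to 124), 67 (7 to 128) and 39 (9 to 149), and in the aged fits 255 (0 to 491), 2 (1 to 123) and 0 (0 to 17). A batch term was not run, as the labels used here hold no batch.

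The value of Cx3cl1 in brain endothelial cells, stroke day 2 against sham, turned to -0.00339 without TMM, -0.45 with at least 800 counts and -0.19 rounded up without the library, ranging from -0.19 to 0.998.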
